A study of Mus musculus with 72 samples.

Results

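The values described here come from 8 of the 72 arrays of the series: bone marrow of mice with PML/RARA leukaemia made by viral transduction on a Pml-/- background, in batch 3. The arrays were chosen by their labels alone and comprise 4 arrays treated with retinoic acid (RA) for 12 h and 4 untreated arrays, of which 2 carry the time label 6 h and 2 the label 12 h. All 8 share the fusion protein, the viral model, the tissue and the batch, so the controls carry PML/RARA and lack normal Pml as well. Beside them stand 8 arrays of the same design on a wild type background in batch 3, 4 Pml null arrays given RA for 6 h in batch 3, and 6 Pml null arrays of batch 4 (4 with RA for 6 h and 2 untreated).

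The labels and notes used here state no RA dose or route, vector promoter, mouse age or number of leukaemias per group. Whether the replicates of a group are different mice is not stated either, so p-values measure the spread between these arrays, which may be technical. The Pml background cannot be told apart from the particular leukaemias that carry it. In whole marrow, more RNA of a gene per cell cannot be told apart from more cells that express it.

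Acute promyelocytic leukaemia arises when the retinoic acid receptor alpha is fused to PML, and the fusion holds genes that RA would induce in a repressed state. RA relieves the repression, leads to loss of the fusion protein and drives the arrested promyelocytes towards neutrophils. PML builds nuclear bodies, structures that take part in the activation of the tumour suppressor p53 and in senescence. The comparison addresses which part of the early transcriptional response to RA is seen in leukaemic marrow without normal Pml.

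Levels are deposited log2 signals, on which a difference of 1 is a 2-fold change. Effects are log2 changes ± standard error from limma, fitted to the 24 viral arrays of batch 3, with p-values adjusted by the Benjamini-Hochberg method over 19938 genes. A gene was called where the adjusted p was under 0.05. Where 4 untreated values are given, they are those of 6 h replicates 1 and 2 and 12 h replicates 1 and 2, in this order, and RA values follow replicates 1 to 4. The replicate numbers were given here by the order of the arrays in the series and are not those of the titles. The medians of the 8 arrays lay between 6.56 and 6.62.

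The arrays within a group were not alike. On the first principal component of the 8 arrays (57.5% of the variance) the untreated arrays lay between -26.5 and -15.5, RA replicates 1 and 3 at 11.1 and 10.6, and RA replicate 2 farthest out at 34.9, with RA replicate 4 next to it. The next component (16.2%) placed RA replicates 1 and 3 at 18.7 and 19.4 and RA replicates 2 and 4 at -15.8 and -8.3. Untreated 12 h replicate 2 carried more B cell signal than the other controls: the mean of 9 B cell markers was 9.0 there and 7.07 to 7.44 on the other 3. Its marker means were also the highest of the controls for erythroid cells (7.26), megakaryocytes (8.23), stroma (8.47) and eosinophils, basophils and mast cells (7.98). They were not for T and NK cells or for monocytes. The same held for RA replicate 4 among the RA arrays, with 8.17 for B cells and 7.54 for erythroid cells. Untreated 6 h replicate 1 had 10.60 for the stress gene Dusp1, against 8.58 to 8.67 on the other 3.

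The Pml probe set did not separate the backgrounds. It read 9.52, 9.16, 9.28 and 9.48 on the untreated arrays labelled Pml null and 9.35, 9.41, 9.46 and 9.38 on those labelled wild type. Which part of the transcript this probe set covers is not given in the sources used here, and whether it also reads the PML part of the fusion RNA, which all these arrays carry, was not tested. It therefore does not check the label, and "Pml null" below stands for what the labels say. The promyelocyte gene Elane, neutrophil elastase, was high on all 8 arrays (12.12 to 13.04 untreated and 12.87 to 13.36 with RA), as was Ctsg, cathepsin G (13.28 to 13.37 and 13.10 to 13.14).

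RA at 12 h changed 1643 genes in Pml null leukaemia: 1019 rose (5.11% of all genes) and 624 fell (3.13%). By at least 1.5-fold, 575 rose and 202 fell. The rises were led by Cyp26a1, the enzyme that breaks down RA, by Pram1, an adaptor protein of granulocytes, and by Ccrl2, a receptor-like protein that binds chemerin, and the falls by Bex6. All 4 RA arrays lay above all 4 untreated arrays for 1768 genes (8.87%) and below them for 1567 (7.86%), and 1468 of the 1643 called genes were of one of these kinds.

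The number of calls depended on single arrays. It was 1010 without RA replicate 2, 1089 without RA replicate 4, 1059 without untreated 12 h replicate 2 and 1072 without untreated 6 h replicate 2. There were 848 genes called in the full comparison and again without each of the 8 arrays, 626 of them up and 222 down.

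The controls pooled both time labels. Between untreated arrays labelled 12 h and 6 h, limma called 0 genes (0%), while 287 had an unadjusted p under 0.05; with 2 arrays per label this is a weak test. Against the 12 h controls alone 917 genes were called for RA, and against the 6 h controls alone 522. All 1643 genes changed in the same direction against either label, and 473 of them (28.8%) were called against each. Both comparisons use the RA arrays and the controls by which the 1643 were called. The shared direction was therefore largely set by that choice and does not bear on the pooling.

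RA receptors bind repeats of a short hexamer, so promoters are shown first for Cyp26a1, Hic1, Stra8 and Dhrs3, which with Bhlhe40 are the 5 RA targets with the largest rises. The sequences are RefSeq's (build GRCm38.p6), run from 250 bases before to 50 after the annotated start, and are written 5′ to 3′ along the gene. They lie at chr19:37697558-37697857 (+ strand) for Cyp26a1, chr11:75170206-75170505 (- strand) for the first listed start of Hic1, chr6:34920698-34920997 (+ strand) for Stra8 and chr4:144892577-144892876 (+ strand) for the first listed start of Dhrs3. Capitals mark matches on either strand to the receptor hexamer AGGTCA, or to its variant GGGTCA, or to the further variants AGTTCA as well as GGTTCA.
Cyp26a1: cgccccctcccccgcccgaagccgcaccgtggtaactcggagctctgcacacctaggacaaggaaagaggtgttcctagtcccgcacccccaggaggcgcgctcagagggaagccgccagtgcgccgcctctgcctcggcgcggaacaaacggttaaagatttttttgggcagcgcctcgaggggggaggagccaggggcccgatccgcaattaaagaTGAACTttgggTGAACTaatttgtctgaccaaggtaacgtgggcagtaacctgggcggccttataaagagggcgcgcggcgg
Hic1: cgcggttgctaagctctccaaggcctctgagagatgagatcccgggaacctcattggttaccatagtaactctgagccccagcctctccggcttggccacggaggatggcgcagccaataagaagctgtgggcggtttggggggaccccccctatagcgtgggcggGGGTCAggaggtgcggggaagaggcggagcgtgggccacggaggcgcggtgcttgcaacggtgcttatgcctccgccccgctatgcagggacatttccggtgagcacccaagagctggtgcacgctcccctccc
Stra8: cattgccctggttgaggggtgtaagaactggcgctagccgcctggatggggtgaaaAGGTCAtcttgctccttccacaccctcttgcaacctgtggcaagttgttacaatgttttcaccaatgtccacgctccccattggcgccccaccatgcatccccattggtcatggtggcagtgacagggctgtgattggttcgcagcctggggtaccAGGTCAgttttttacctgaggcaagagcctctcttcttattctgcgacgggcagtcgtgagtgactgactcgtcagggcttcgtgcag
Dhrs3: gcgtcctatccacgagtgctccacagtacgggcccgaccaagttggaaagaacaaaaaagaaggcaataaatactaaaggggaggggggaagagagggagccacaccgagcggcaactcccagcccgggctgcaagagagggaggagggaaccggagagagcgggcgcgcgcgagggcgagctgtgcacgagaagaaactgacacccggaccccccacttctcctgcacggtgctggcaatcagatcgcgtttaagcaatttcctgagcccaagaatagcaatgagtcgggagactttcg

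The Cyp26a1 window holds 2 copies of AGTTCA on the opposite strand, which form a direct repeat spaced by 5 bases that begins at -32 from the start. Such a repeat of any of these hexamers was found in 32 of 32851 promoter windows (0.0974%). The Stra8 window holds AGGTCA at -194 and at -38, too far apart for such a repeat, the Hic1 window a single GGGTCA at -84, and the Dhrs3 window none. At least 1 of the hexamers occurred in 43.7% of all windows. A match is a run of letters and does not show that a receptor binds there.

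Of 16 RA targets measured, 9 rose and 1 fell, with a median change of 0.65 where the median over all genes was -0.0016. Over all genes 5.11% rose and 3.13% fell, and these shares are the base for this count and for the later list counts of RA at 12 h in the null. Cyp26a1 read 5.48, 5.36, 5.38 and 5.19 on the untreated arrays and 10.75, 11.47, 10.43 and 11.55 on the RA arrays. The rise of 5.70 ± 0.33 (adjusted p = 5.08e-10) corresponds to 51.9-fold, and the groups lay far apart relative to their spread. Hic1, a transcriptional repressor, moved from 6.80, 6.60, 6.69 and 6.64 to 8.68, 9.68, 8.08 and 9.79 (2.37 ± 0.32, adjusted p = 3e-05). Stra8, which RA induces in germ cells entering meiosis, moved from 4.49, 4.30, 4.2 and 4.22 to 5.78, 6.86, 5.30 and 6.61 (1.84 ± 0.25, adjusted p = 3.67e-05). For Cyp26a1, Hic1 and Stra8, RA replicates 2 and 4 were the higher pair, and the groups did not overlap.

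Bhlhe40, a transcriptional repressor, rose by 2.10 ± 0.26 and Dhrs3, which reduces retinal and so limits RA production, by 1.81 ± 0.26. Dhrs3 was even among the RA arrays (11.82, 11.45, 11.70 and 11.81). Among the receptors, Rara was at 8.15 to 8.54 untreated and at 8.59 to 9.22 with RA (a rise of 0.65 ± 0.14, adjusted p = 0.00315); whether its probe set also reads the fusion RNA was not tested. Rarg rose by 0.91 ± 0.25 (adjusted p = 0.0225). Rarb, a classical target of RA receptors, stayed low, at 5.54 to 5.74 untreated and 5.86 to 6.14 with RA (0.32 ± 0.09, adjusted p = 0.0245), and was not called against the controls of either label alone, nor without RA replicate 2 or 4 or untreated 12 h replicate 1 or 2. Tgm2, a transglutaminase induced by RA in myeloid cells, rose by 1.06 ± 0.32, and the receptor tyrosine kinase Ret fell by 0.32 ± 0.09. The call of a fall was lost without untreated 12 h replicate 1 or 2, untreated 6 h replicate 2 or RA replicate 1. Against the 6 h controls alone 5 of the 16 rose.

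**Figure D1:**
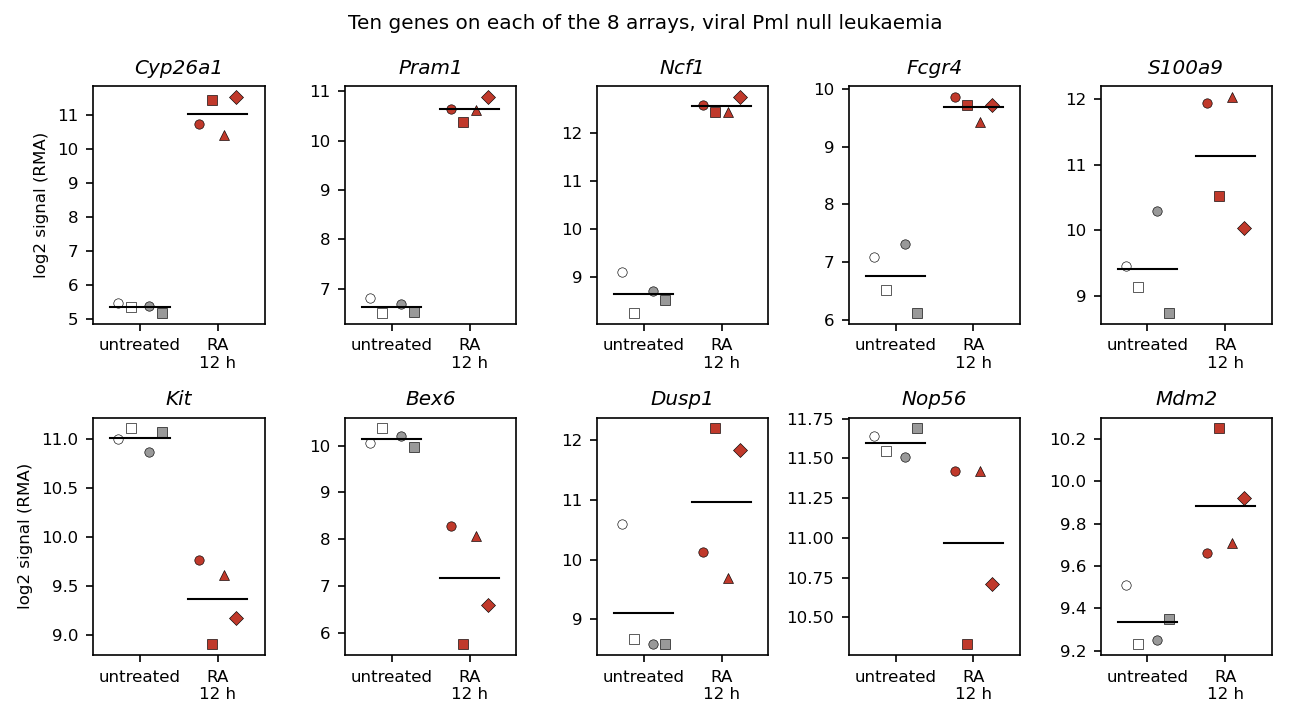
Log2 signal of 10 genes on each of the 8 arrays. Open symbols are untreated arrays labelled 6 h, grey symbols untreated arrays labelled 12 h and red symbols RA arrays at 12 h; circle, square, triangle and diamond stand for replicates 1 to 4 and the line for the mean of 4 arrays. The groups lie apart for Cyp26a1, Pram1, Ncf1, Fcgr4 and Kit, and RA replicates 2 and 4 stand away from 1 and 3 for S100a9, Bex6, Dusp1 and Nop56.

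All 5 measured subunits of the phagocyte NADPH oxidase, which makes superoxide in neutrophils, rose, with a median of 1.96. Ncf1 (p47phox) read 9.10, 8.26, 8.71 and 8.52 untreated and 12.59, 12.45, 12.44 and 12.76 with RA (3.91 ± 0.40, adjusted p = 9.11e-07). Ncf4 (p40phox) moved from 9.56, 8.90, 9.13 and 8.80 to 11.32, 11.40, 11.25 and 11.39 (2.24 ± 0.24). The catalytic subunit Cybb moved from 11.41, 10.32, 10.72 and 9.88 to 12.65, 12.47, 12.63 and 12.41 (1.96 ± 0.33, adjusted p = 0.000363). For each of these subunits the RA arrays were closer to each other than the untreated arrays were. Rac2, already at 12.12 to 12.43 without RA, rose by 0.54 ± 0.09, and Cyba, the membrane partner of Cybb, by 0.49 ± 0.11. Pram1 read 6.81, 6.51, 6.68 and 6.52 untreated and 10.64, 10.38, 10.63 and 10.89 with RA (4.01 ± 0.46, adjusted p = 3.86e-06).

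Of 5 genes of the Fc gamma receptors, which bind antibody-coated particles, 3 rose. Fcgr4 moved from 7.10, 6.53, 7.31 and 6.13 to 9.86, 9.71, 9.43 and 9.71 (2.91 ± 0.55, adjusted p = 0.00135). Fcgr3 moved from 9.86, 8.66, 8.90 and 8.6 to 11.58, 12.16, 11.37 and 12.11 (2.80 ± 0.28, adjusted p = 6.82e-07). The inhibitory receptor Fcgr2b rose by 0.42 ± 0.10, a call lost against the 6 h controls alone, and the shared signalling chain Fcer1g was at 12.54 to 12.69 and 12.51 to 12.57 (-0.05 ± 0.05, adjusted p = 0.702).

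Of 24 genes of secondary granules and mature neutrophils, 10 rose and 0 fell, with a median of 0.78. Ngp, a secondary granule protein, was even in each group, with 10.14, 10.68, 10.47 and 10.62 untreated and 12.36, 12.78, 12.73 and 12.27 with RA (2.06 ± 0.15, adjusted p = 8.08e-09). Padi4, which citrullinates histones in neutrophils, moved from 7.01, 5.99, 5.87 and 6.41 to 9.47, 8.96, 9.66 and 8.90 (2.93 ± 0.64, adjusted p = 0.00484). S100a9, a subunit of calprotectin, moved from 9.45, 9.13, 10.30 and 8.74 to 11.94, 10.53, 12.04 and 10.04 (1.73 ± 0.34, adjusted p = 0.00164). For S100a9 the untreated array at 10.30 lay above the lowest RA array, so the groups overlapped, and RA replicates 1 and 3 were the higher pair, the reverse of Cyp26a1.

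The other rises in this group were those of the surface protein Cd177 (1.59 ± 0.26), the iron-scavenging lipocalin Lcn2 (0.91 ± 0.14), the integrin chain Itgam (1.04 ± 0.26), the chemokine receptor Cxcr2 (1.32 ± 0.29), the calprotectin subunit S100a8 (1.53 ± 0.28), Retnlg (0.98 ± 0.30) and Cybb. Padi4 and Itgam were not called against the 6 h controls alone, Itgam not without untreated 12 h replicate 2, and Cxcr2 not against the 12 h controls alone. The mean over the 24 genes was 9.20 to 9.52 on the untreated arrays and 10.47, 10.06, 10.50 and 9.89 on RA replicates 1 to 4, with no overlap. Chil1, a chitinase-like protein of neutrophils outside the list, read 11.67, 9.04, 9.66 and 8.29 untreated and 13.27, 12.87, 13.26 and 12.86 with RA (3.40 ± 0.46), with untreated 6 h replicate 1 well above the other controls.

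The 13 primary granule and promyelocyte genes moved both ways, with 2 up, 3 down and a median of -0.17, where 5.11% of all genes rose and 3.13% fell. Prtn3, proteinase 3, moved from 11.43, 10.74, 10.98 and 9.93 to 12.91, 12.18, 13.07 and 12.35 (1.86 ± 0.23, adjusted p = 1.03e-05), and Elane rose by 0.56 ± 0.14. The falls were smaller: Ctsg by 0.22 ± 0.05, Mpo (myeloperoxidase) by 0.17 ± 0.05 and Nkg7 by 0.50 ± 0.12. Elane and Nkg7 were not called without untreated 12 h replicate 2, nor Nkg7 without RA replicate 2. Without either of these arrays 1 of the 13 fell, and without the untreated one 1 rose.

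Of 12 transcription factors of the myeloid lineage, 4 rose and 0 fell. Cebpb moved from 8.01, 8.16, 8.16 and 7.97 to 9.12, 9.07, 8.88 and 9.22 (1.00 ± 0.09, adjusted p = 1.38e-07). Cebpa, the factor that commits progenitors to granulocytes, was at 9.63 to 9.70 untreated and at 10.49 to 10.87 with RA (a rise of 1.03 ± 0.13). Spi1 (PU.1) was at 10.93 to 11.10 and at 11.81 to 12.16 (a rise of 0.94 ± 0.11). The groups did not overlap for any of these 3. Klf2 read 8.42, 9.96, 8.17 and 9.48 with RA, again with replicates 2 and 4 as the higher pair, against 7.78 to 7.96 untreated (1.11 ± 0.25, adjusted p = 0.00658), and was not called against the controls of either label alone. Cebpe, needed for late granulocyte maturation, read 11.36, 11.30, 11.33 and 11.29 untreated and 12.00, 11.74, 11.92 and 12.20 with RA, without overlap. Its difference of 0.64 ± 0.25 did not pass the test (adjusted p = 0.133). The standard error pooled the spread within all groups of the fit, including arrays outside this comparison, and is not that of these values alone. The missed threshold therefore does not show that Cebpe was unchanged.

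Genes of stem and progenitor cells held 5 falls and 0 rises among 20 members, with a median of -0.10. The receptor tyrosine kinase Kit moved from 11.00, 11.11, 10.87 and 11.07 to 9.77, 8.91, 9.62 and 9.18 (a fall of 1.65 ± 0.31, adjusted p = 0.00137). Adgrg1, an adhesion receptor of haematopoietic stem cells, fell by 1.63 ± 0.30, Cd34 by 1.43 ± 0.33, and the transcription factors Erg and Gata2 by 1.02 ± 0.29 and 0.97 ± 0.26. Cd34 was lowest on RA replicates 1 and 3 (10.09, 11.15, 9.85 and 11.09), and its call was lost against the 6 h controls alone. Gata2 was not called against the controls of either label, nor without untreated 12 h replicate 2, untreated 6 h replicate 2 or RA replicate 3, and without any 1 of these 3 arrays 3 of the 20 fell.

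Among the 10 largest falls, Bex6 moved from 10.05, 10.37, 10.20 and 9.98 to 8.29, 5.76, 8.07 and 6.59 (a fall of 2.97 ± 0.41, adjusted p = 4.07e-05), with RA replicates 2 and 4 far below the others. P2ry14, a nucleotide sugar receptor of progenitors, fell by 1.64 ± 0.30, S1pr3, a sphingosine phosphate receptor, by 1.66 ± 0.26, and St8sia4, a polysialyltransferase, by 1.67 ± 0.32. Tmem178, a transmembrane protein, fell by 2.15 ± 0.32 and Slc24a3, a cation exchanger, by 2.02 ± 0.43. Ak4, an adenylate kinase, fell by 1.81 ± 0.48; its other probe set changed by -0.67, and the call was lost without RA replicate 2, RA replicate 4, untreated 6 h replicate 2 or untreated 12 h replicate 2.

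**Figure D2:**
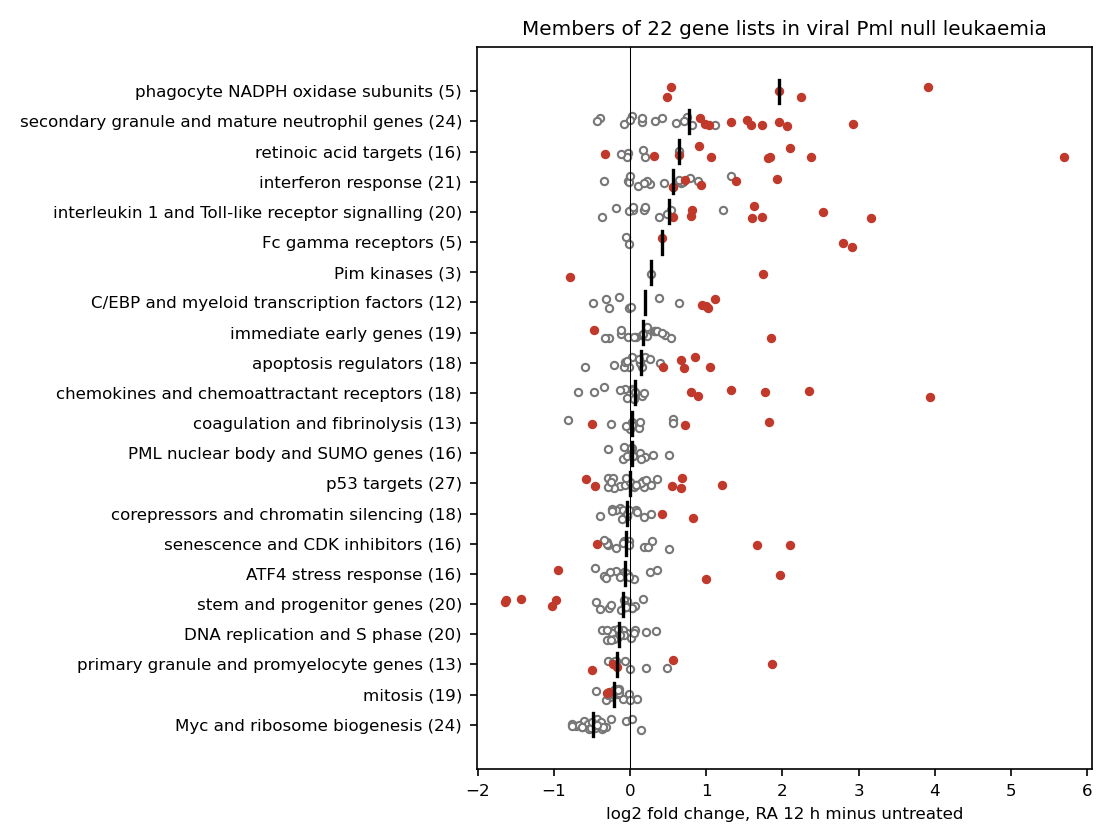
RA effect at 12 h (log2 change) of each measured gene in 22 gene lists in Pml null leukaemia, 4 RA against 4 untreated arrays. Filled red points passed an adjusted p of 0.05, open points did not, and the bar is the list median; the NADPH oxidase subunits have the highest median, 1.96, and the Myc and ribosome biogenesis genes a median of -0.48 with 0 calls.

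Signalling genes of inflammation also rose. Of 20 genes of interleukin 1 and Toll-like receptor signalling, 8 rose and 0 fell, with a median of 0.51. The kinase Irak2 moved from 7.42, 6.86, 7.24 and 7.34 to 9.95, 11.13, 9.62 and 10.80 (3.17 ± 0.29, adjusted p = 2.29e-07). The decoy receptor Il1r2 moved from 6.57, 6.17, 7.06 and 5.76 to 8.62, 9.34, 8.79 and 8.96 (2.54 ± 0.24, adjusted p = 3.53e-07). These groups lay well apart. The receptor antagonist Il1rn rose by 1.73 ± 0.36, the lipopolysaccharide receptor Cd14 by 1.6 ± 0.27, and the regulators of NF-kappa-B Nfkbia and Nfkbiz by 1.63 ± 0.26 and 0.81 ± 0.10.

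Of 18 chemokines and chemoattractant receptors, 6 rose and 0 fell. Ccrl2 moved from 5.98, 5.91, 5.71 and 6.04 to 9.33, 10.55, 8.98 and 10.53 (3.94 ± 0.27, adjusted p = 4.96e-09). The complement receptor C5ar1 was at 6.31 to 7.03 untreated and at 8.71 to 9.21 with RA (a rise of 2.35 ± 0.24). The leukotriene B4 receptor Ltb4r1 was at 7.95 to 8.93 and at 9.82 to 10.24 (a rise of 1.77 ± 0.23). Outside these lists, Suox, sulfite oxidase, rose by 3.82 ± 0.42, and Ocm, oncomodulin, by 3.90 ± 0.91. Ocm read 7.20, 5.61, 5.48 and 5.45 untreated, and its call was lost against the 6 h controls alone.

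Of 21 interferon response genes, 5 rose and 0 fell, with a median of 0.57. Irf1, a transcription factor that RA also induces, moved from 7.87, 8.11, 7.90 and 8.47 to 10.03, 10.07, 9.66 and 10.33 (1.93 ± 0.13, adjusted p = 4.58e-09); its other probe set changed by 0.40. Isg20, an exonuclease, rose by 1.39 ± 0.33, the RNA sensor Ifih1 by 0.72 ± 0.16 and the transcription factor Irf7 by 0.57 ± 0.15 (adjusted p = 0.0172). The mean over the list was 7.16 to 7.34 untreated and 7.77, 7.45, 8.08 and 7.85 on RA replicates 1 to 4. Isg20 and Ifih1 were not called against the 6 h controls alone, and Irf7 not without untreated 6 h replicate 1, untreated 12 h replicate 2 or RA replicate 3.

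Of 27 p53 targets measured, 4 rose and 2 fell, where 5.11% of all genes rose and 3.13% fell. Their median change was -0.0045, against -0.0016 over all genes. Trp53, Cdkn1a, Bax and Gdf15 were not analysed here. Trp53inp1, which p53 induces in response to stress, moved from 9.44, 9.65, 9.45 and 9.68 to 10.48, 11.19, 10.54 and 10.86 (1.21 ± 0.13, adjusted p = 2.51e-06). Mdm2, the ubiquitin ligase that restrains p53, moved from 9.51, 9.23, 9.25 and 9.35 to 9.66, 10.25, 9.71 and 9.92 (0.55 ± 0.10, adjusted p = 0.000782). Pmaip1 (Noxa), a trigger of apoptosis, moved from 7.15, 7.03, 7.11 and 6.97 to 7.58, 8.0, 7.66 and 7.72 (0.68 ± 0.11, adjusted p = 0.000192). The groups did not overlap for any of these 3 genes. The death receptor Fas rose by 0.68 ± 0.20 (adjusted p = 0.0391), the DNA repair gene Xpc fell by 0.46 ± 0.11 and Perp, a membrane protein of apoptosis, by 0.57 ± 0.15. Xpc was not called without RA replicate 2, and without RA replicate 2 or 3, untreated 6 h replicate 2 or untreated 12 h replicate 2 a single target fell. Against the controls of either label alone 0 of the 27 fell.

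In Pml wild type leukaemia, 5 of the 27 targets rose (Ddb2, Mdm2, Pmaip1, Sesn1 and Trp53inp1) and 3 fell (Phlda3, Xpc and Zmat3). Over all genes 5.14% rose and 5.84% fell there. The difference between the backgrounds was called for 0 of the 27, where 0.181% of all genes were called in one direction and 0.0502% in the other, so a list of this size would rarely hold a call. The wild type effect was 0.67 ± 0.13 for Trp53inp1, and the difference, null minus wild type, 0.54 ± 0.19 (adjusted p = 0.413). Its 95% interval of 0.15 to 0.93, not adjusted for the number of genes, lay above no difference. The same held for Tigar (0.14 to 0.95), while that of Sesn1 lay below (-0.86 to -0.16). For Mdm2 these were 0.32 ± 0.10 and 0.23 ± 0.14 (adjusted p = 0.869), with a 95% interval of the difference of -0.06 to 0.51. For Pmaip1 they were 0.44 ± 0.11 and 0.24 ± 0.15 (adjusted p = 0.88), with an interval of -0.07 to 0.55. The intervals of Mdm2 and Pmaip1 hold both no difference and a larger rise in the null. A p that misses the threshold does not show that the backgrounds respond alike.

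**Figure D3:**
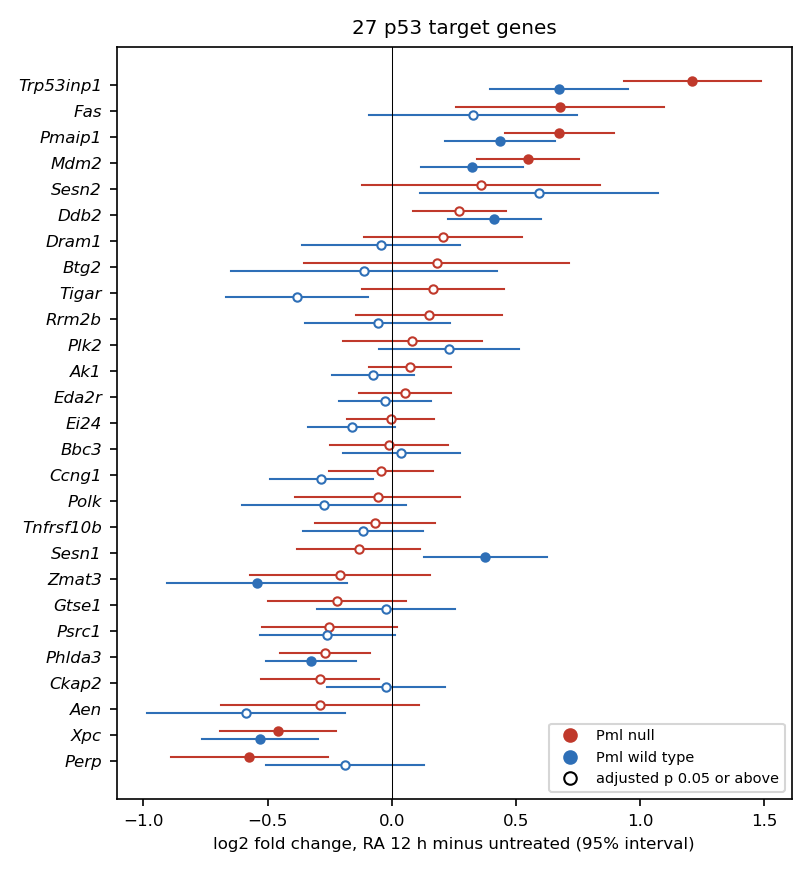
RA effect at 12 h (log2 change with 95% interval) of 27 p53 targets in Pml null (red) and Pml wild type (blue) leukaemia, 4 RA and 4 untreated arrays each. Filled points passed an adjusted p of 0.05; 4 targets rose and 2 fell in the null, and 5 rose and 3 fell in the wild type.

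Of 16 genes of PML nuclear bodies and SUMO conjugation, 0 were called, with a median of 0.02. The lists in this paragraph are read against the 5.11% of all genes that rose and the 3.13% that fell, shares at which lists of their size hold few calls. The Pml signal itself was 9.52, 9.16, 9.28 and 9.48 untreated and 9.76, 10.01, 9.73 and 10.01 with RA, without overlap, and its difference of 0.51 ± 0.16 missed the threshold (adjusted p = 0.0559); the gene was called under 5 of the alternatives, among them array weights and centred arrays. Of 16 genes of senescence and cyclin-dependent kinase inhibition, Bhlhe40 and Cdkn2d rose and Tnfaip3 fell. Cdkn2d (p19), a cell cycle inhibitor, moved from 7.01, 6.99, 7.06 and 7.32 to 8.48, 9.62, 7.87 and 9.05 (1.66 ± 0.24, adjusted p = 6.71e-05), with RA replicates 2 and 4 as the higher pair. Of 18 regulators of apoptosis, 5 rose and 0 fell: Bmf (1.05 ± 0.14), Birc3 (0.85 ± 0.16), Bak1 (0.71 ± 0.12), Mcl1 (0.43 ± 0.11) and Pmaip1. Bcl2, which protects from apoptosis, differed by -0.59 ± 0.23 (adjusted p = 0.13).

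Lists of growth and division genes are read against the 3.13% of all genes that fell, a share at which lists of their size hold few calls. Of 24 Myc targets and ribosome biogenesis genes 0 were called, with a median of -0.48; the list mean was 9.93 to 10.14 untreated and 9.94, 9.21, 9.91 and 9.26 on RA replicates 1 to 4. Nop56, which assembles nucleolar ribonucleoproteins, read 11.64, 11.55, 11.51 and 11.69 untreated and 11.42, 10.33, 11.42 and 10.71 with RA (-0.63 ± 0.23, adjusted p = 0.101). RA replicates 2 and 4 were thus below all controls and RA replicates 1 and 3 close to them. Myc read 12.25, 11.92, 11.73 and 11.88 and 12.10, 10.40, 12.10 and 11.32 (-0.47 ± 0.35, adjusted p = 0.547), with the same pair lowest. Of the 24 genes, 2 fell without RA replicate 1, 3 without RA replicate 3 and 10 with all viral arrays and a batch term. Of 20 genes of DNA replication 0 were called, and of 19 mitotic genes 2 fell, Mad2l1 by 0.30 ± 0.08 and Ccna2 by 0.27 ± 0.08, both lost without RA replicate 2 or 4 or untreated 12 h replicate 1, and Ccna2 also without RA replicate 1 or 3 or untreated 12 h replicate 2.

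Kinases and stress genes moved singly. Of the Pim survival kinases, Pim1 moved from 10.47, 10.46, 10.49 and 10.61 to 11.98, 12.75, 11.76 and 12.52 (1.74 ± 0.17, adjusted p = 6.55e-07), Pim2 fell by 0.79 ± 0.16 and Pim3 was not called. Dusp1, a phosphatase of the immediate early response, read 10.60, 8.67, 8.58 and 8.58 untreated and 10.12, 12.20, 9.69 and 11.84 with RA (1.86 ± 0.56, adjusted p = 0.0432), and Ddit4, an inhibitor of mTOR signalling, 6.81, 7.53, 7.17 and 7.65 and 8.36, 10.46, 7.93 and 10.26 (1.96 ± 0.59, adjusted p = 0.0402). Both calls were lost without RA replicate 2 or 4, untreated 6 h replicate 2 or untreated 12 h replicate 1 or 2, and that of Ddit4 also without untreated 6 h replicate 1. Of 19 immediate early genes, Dusp1 rose and Nr4a2 fell (-0.47 ± 0.10). Of 16 genes of the ATF4 stress response, Cebpb and Ddit4 rose and Phgdh, the first enzyme of serine synthesis, fell by 0.95 ± 0.20. Over all genes 5.11% rose and 3.13% fell, so calls this few are not read as a trait of either list.

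Of 13 genes of coagulation and fibrinolysis, a system disturbed in this leukaemia, F10 and F3 rose and S100a10 fell. For both lists in this paragraph, the shares over all genes were 5.11% up and 3.13% down, at which lists of their size hold few calls. F3, tissue factor, moved from 5.48, 5.38, 5.58 and 4.98 to 7.0, 7.15, 6.49 and 8.09 (1.83 ± 0.46, adjusted p = 0.0147), and was not called without RA replicate 4 or untreated 12 h replicate 2. S100a10, a plasminogen receptor subunit, fell by 0.50 ± 0.12. Of 18 corepressors, coactivators and silencing factors, the coactivators Ncoa3 (0.83 ± 0.15) and Ep300 (0.42 ± 0.10) rose and 0 fell. F3, F10, Ep300 and Tnfaip3 were not called against the controls of either label alone, and S100a10, Pim2, Nr4a2, Phgdh and Slc24a3 not against the 6 h controls alone.

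Markers of other marrow cells gave 1 call, the basophil protease Prss34, which read 7.46, 6.93, 6.87 and 7.04 and 9.98, 8.0, 8.87 and 7.86 (1.6 ± 0.35), a call lost against the 6 h controls alone. The marker means overlapped between untreated and RA arrays for erythroid cells (6.38 to 7.26 and 6.58 to 7.54), B cells (7.07 to 9.0 and 6.98 to 8.17), T and NK cells (6.41 to 6.94 and 6.42 to 6.60), monocytes and macrophages (8.33 to 8.49 and 8.23 to 8.57) and stroma and endothelium (8.20 to 8.47 and 7.97 to 8.27). They also overlapped for megakaryocytes (7.51 to 8.23 and 7.50 to 8.06) and for eosinophils, basophils and mast cells (7.23 to 7.98 and 7.32 to 7.46). The part of these cells in the results above was not tested.

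The same comparison in Pml wild type leukaemia called 2190 genes, 1025 up (5.14%) and 1165 down (5.84%). With each array centred on its median the share of rises there was 58.6% in place of 46.8%. Of the 1019 genes that rose in the null, 548 also rose in the wild type (53.8% of the null list and 53.5% of the wild type list). Of the 624 that fell, 316 fell in the wild type (50.6% and 27.1%), and 3 genes were called in opposite directions. Cyp26a1 rose in the wild type by 4.88 ± 0.33, Ccrl2 by 4.13 ± 0.27, Hic1 by 2.99 ± 0.32 and Bhlhe40 by 2.11 ± 0.26, and Bex6 fell by 3.09 ± 0.41. The difference between the backgrounds was called for none of these 5. Over all genes 0.181% were called as more positive in the null and 0.0502% as more negative, so 5 genes would rarely hold a call. For Cyp26a1 the difference was 0.81 ± 0.47 (adjusted p = 0.855), with an interval of -0.17 to 1.79.

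**Figure D4:**
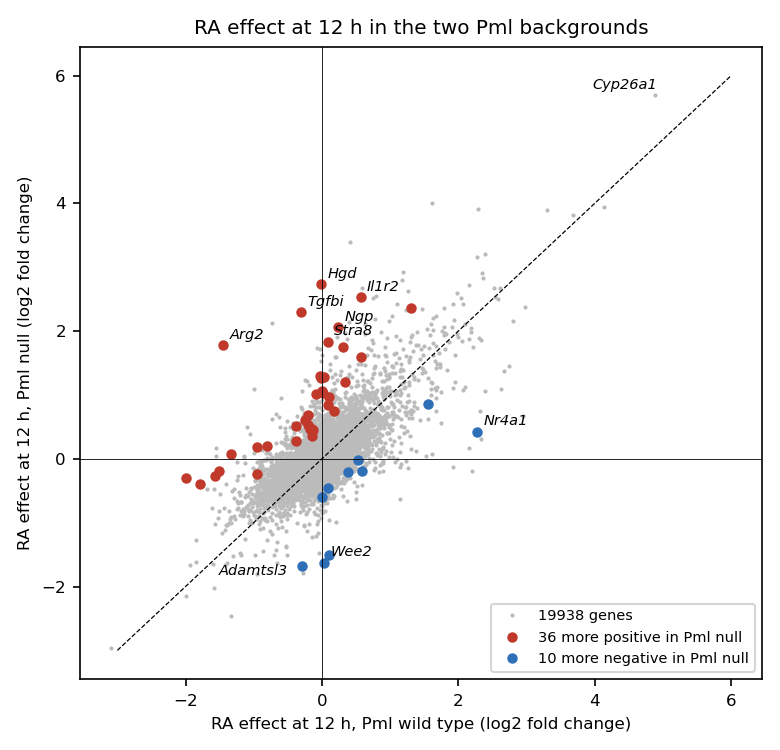
RA effect at 12 h (log2 change) of 19938 genes in Pml wild type and Pml null leukaemia of batch 3, 4 RA and 4 untreated arrays each. The dashed line marks equal effects; red points are the 36 genes with a more positive effect in the null and blue points the 10 with a more negative one.

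The difference itself was called for 46 genes, 36 with a more positive effect in the null (0.181%) and 10 with a more negative one (0.0502%). Against the 12 h controls alone it was called for 7 genes, 4 more positive and 3 more negative, and against the 6 h controls alone for 4, 1 more positive and 3 more negative. Ngp differed by 1.82 ± 0.21 (adjusted p = 0.000155), a call kept under every alternative tried. Its mean was 12.91 on the untreated wild type arrays and 13.14 with RA, and 10.48 and 12.53 in the null, so the wild type without RA was already above the null with RA. Il1r2 (1.97 ± 0.33) and Tgfbi, an extracellular matrix protein (2.6 ± 0.45), also started higher in the wild type, where untreated arrays read 10.38 to 10.91 and 11.27 to 11.61 against 5.76 to 7.06 and 8.05 to 9.48 in the null.

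Arg2, an arginase, changed in opposite directions. It read 7.09, 5.93, 6.55 and 6.32 untreated and 8.25, 8.18, 8.07 and 8.50 with RA in the null (1.78 ± 0.31) and 9.44, 8.76, 9.45 and 9.30 and 8.50, 7.98, 7.14 and 7.56 in the wild type (-1.44 ± 0.31), a difference of 3.22 ± 0.44 (adjusted p = 0.00106). Hgd, an enzyme of tyrosine breakdown, and Stra8 started level. Hgd rose in the null from 6.17, 5.93, 6.03 and 5.97 to 8.38, 9.38, 8.40 and 8.86 and read 5.96 to 6.03 and 5.94 to 6.01 in the wild type, a difference of 2.75 ± 0.43 (adjusted p = 0.0055). Stra8 read 4.15 to 4.37 and 4.27 to 4.41 in the wild type, a difference of 1.75 ± 0.35 (adjusted p = 0.0306), a call lost under 15 of the alternatives. For Hgd and Stra8 no wild type array with RA reached the lowest null array with RA. Among the 36 genes, the untreated mean was lower in the null for 26, 27 rose in the null, and 10 fell and 2 rose in the wild type.

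**Figure D5:**
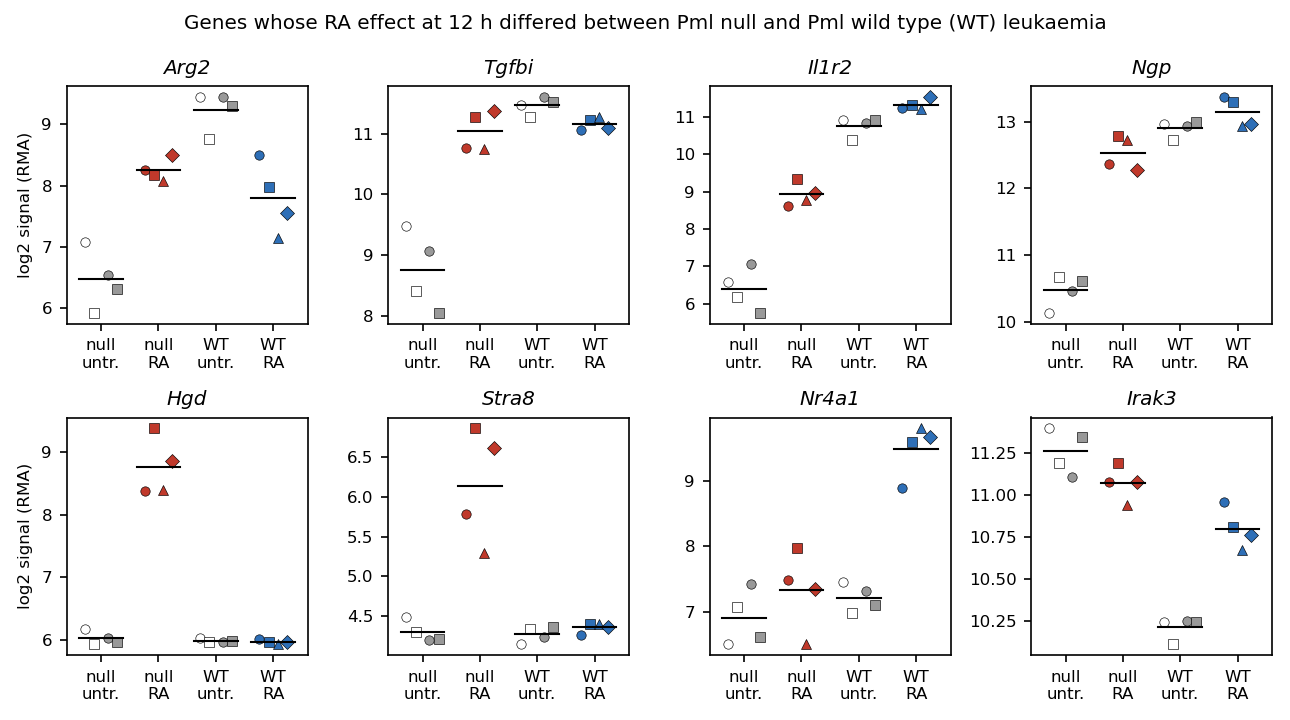
Log2 signal of 8 genes whose RA effect differed between the backgrounds, on the untreated and RA 12 h arrays of Pml null (red with RA) and Pml wild type (blue with RA) leukaemia; symbols stand for replicates 1 to 4 and lines for the mean of 4 arrays. Hgd and Stra8 have equal untreated levels and are higher with RA on the null arrays, while Ngp, Il1r2 and Tgfbi start higher in the wild type.

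Of the 10 genes with a more negative effect in the null, Nr4a1, a nuclear receptor of the immediate early response, read 7.48, 7.98, 6.50 and 7.35 with RA in the null and 8.89, 9.60, 9.81 and 9.68 in the wild type, from untreated ranges of 6.50 to 7.42 and 6.98 to 7.45 (difference -1.85 ± 0.36, adjusted p = 0.0281). Irak3, an inhibitor of Toll-like receptor signalling, rose in the wild type by 0.59 ± 0.07 and differed by -0.78 ± 0.10 (adjusted p = 0.00106); its untreated level was higher in the null (11.11 to 11.40 against 10.11 to 10.25). Adamtsl3, a protein of the extracellular matrix, was at 7.55 to 7.77 untreated and at 5.83 to 6.09 with RA in the null (a fall of 1.69 ± 0.17) and was lower at the outset in the wild type (5.08 to 5.43). Wee2, a kinase known from oocytes, was at 5.94 to 6.66 untreated and at 4.30 to 5.0 with RA in the null (a fall of 1.63 ± 0.16), and at 4.12 to 4.27 in the untreated wild type. Dnase2a, a lysosomal nuclease, rose in both backgrounds, by 0.85 ± 0.10 and 1.56 ± 0.10. The calls of Nr4a1 and Dnase2a were each lost under 12 of the alternatives. The calls of Hgd, Tgfbi, Il1r2 and Adamtsl3 were lost against the controls of either label alone. The null and wild type arrays used for these differences are those of the separate effects, so the counts describe the same data.

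Between 6 h and 12 h of RA in Pml null leukaemia, 90 genes differed, 72 higher at 12 h (0.361%) and 18 lower (0.0903%). Neutrophil genes were among the later ones: 6 of the 24 were higher at 12 h (Cxcr2, Cybb, Ngp, Retnlg, S100a8 and S100a9) and 0 lower. Ngp read 10.25, 10.48, 10.43 and 10.98 at 6 h, inside or near its untreated range, and was 2.00 ± 0.15 higher at 12 h (adjusted p = 9.98e-08). S100a9 read 9.51, 9.46, 9.60 and 8.92 at 6 h and was 1.77 ± 0.34 higher (adjusted p = 0.0166), a call lost without RA 12 h replicate 1 or 3 or without RA 6 h replicate 3. Ankrd22, an ankyrin repeat protein, was 2.40 ± 0.50 higher, a call lost without any 1 of 6 of the 8 RA arrays, and Cxcr2 1.83 ± 0.29.

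Cyp26a1 and Ccrl2 were near their 12 h level at 6 h. Cyp26a1 read 10.56, 10.82, 9.90 and 11.13 at 6 h (0.45 ± 0.33 from 6 h to 12 h, adjusted p = 0.571), and Ccrl2 10.09, 10.11, 9.86 and 10.09 (-0.19 ± 0.27, adjusted p = 0.791). Myorg, a glycosidase, was high at 6 h alone: it read 7.93, 7.95, 8.07 and 8.36 at 6 h against 6.34 to 6.50 untreated and 6.00 to 6.62 at 12 h (a fall of 1.65 ± 0.21, adjusted p = 0.000744). Ttyh2, a membrane channel protein, read 10.97, 10.90, 11.32 and 9.35 at 6 h and 8.48, 8.81, 8.23 and 8.82 at 12 h (a fall of 2.05 ± 0.37), a call lost without RA 6 h replicate 3. Clec11a, a growth factor for blood progenitors, moved from 10.38, 10.24, 10.62 and 9.78 at 6 h to 9.05, 9.12, 8.95 and 9.03 at 12 h (a fall of 1.22 ± 0.18, adjusted p = 0.00262). RA 6 h replicate 4 stood apart for several of these genes, and the count was 744 without it and 20 without RA 6 h replicate 3.

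Batch 4 gave arrays that the comparison above did not use. There RA at 6 h changed 1006 genes against 2 untreated arrays, 537 up (2.69%) and 469 down (2.35%). Of the 1019 genes up at 12 h in batch 3, 969 (95.1%) had the same sign in batch 4 and 407 rose (39.9% of the 1019 and 75.8% of the 537). Of the 624 down, 597 (95.7%) had the same sign and 162 fell (26.0% and 34.5%). Over all genes 63.3% had the same sign.

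Cyp26a1 in batch 4 read 5.27 and 5.24 untreated and 11.01, 10.65, 10.16 and 9.25 with RA (5.01 ± 0.36, adjusted p = 4.95e-06). Ncf1 read 8.52 and 8.86 and 12.71, 11.91, 11.35 and 10.02 (2.81 ± 0.49), Cebpa changed by 1.38 ± 0.13 and Irf1 by 2.22 ± 0.11. Stra8 rose there too, by 1.24 ± 0.23 (adjusted p = 0.00771). For both lists in this paragraph, the shares over all genes were 2.69% up and 2.35% down. Lists of their size hold few calls at such shares. Of the 24 neutrophil genes 0 rose and 3 fell at 6 h, with a median of -0.21. Ngp read 9.95 and 11.23 untreated and 10.75, 10.67, 11.28 and 10.60 with RA (0.23 ± 0.27, adjusted p = 0.82). Of the 27 p53 targets 2 rose, Trp53inp1 by 0.71 ± 0.16 and Pmaip1 by 0.82 ± 0.18, and the Pml signal rose by 0.72 ± 0.14 (adjusted p = 0.0109). Time and batch both differ between these arrays and the 12 h arrays, so their parts cannot be told apart by this comparison. Within batch 3, the mean of the 24 neutrophil genes was 9.2 to 9.52 untreated, 9.22 to 9.65 with RA at 6 h and 9.89 to 10.5 at 12 h.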

How the data were processed

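RNA of bone marrow tumour samples was hybridised to mouse gene arrays. The deposited values are log2 signals for 35556 probe sets on 72 arrays, made by the authors with RMA and affy per the submitters' processing notes; no setting or version of these steps is stated there, nor whether batches were corrected. Values were used as deposited (2.60 to 14.24, 0 missing). The number of arrays limits the precision.

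Of the probe sets, 21789 have 1 gene symbol in the platform annotation, 1621 several (left out) and 12146 none listed. For 999 genes with several probe sets the one with the highest mean was kept, leaving 19938 genes. Groups were fitted with limma 3.58.1 (R 4.3.3; lmFit and eBayes) over the 24 viral arrays of batch 3, and over the batch 4 viral arrays separately, with Benjamini-Hochberg adjustment and a threshold of 0.05. The method was also run on simulated data with independent normal noise. That run could not show how calls behave where arrays form pairs, as the RA arrays did. No 2 arrays held identical values.

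The arrays, gene lists (29, with 420 genes measured) and the rule for named genes were chosen with earlier results of these data known. The rule names the 10 largest rises and falls, up to 4 members of each list by moderated statistic, the 6 most positive and 6 most negative differences between backgrounds, the 4 of each direction between times, and a fixed panel. Some other called list members (Rarg, Tgm2, Ret, Fas, Perp, S100a8, Retnlg, Cyba, Mpo, Erg, Il1rn, Cd14 and Mcl1) were named after their values were seen. Alternatives were each time label of the controls alone, other scalings and filters, array weights, a batch term, and leaving out each array.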

Additional observations from a re-analysis of the deposited data

Results flagged for a closer look

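Among 144 genes tested in both groups of 4 arrays, 288 gene and group pairs in all, 11 held an array that stood apart from the other 3 by Dixon's criterion at the 95% level, where chance gives about 1 in 20. Of these, 6 were in untreated 6 h replicate 1: Ocm at 7.20, Clec11a at 10.27, Fcgr2b at 11.45, Isg20 at 9.38, Dusp1 at 10.60 and Ncoa1 at 9.29. In untreated 12 h replicate 2 it was Pax5, a B cell factor, at 8.92. In RA replicate 2 Pim2 stood low at 7.67 and Epor at 6.13, and in RA replicate 4 Igll1 stood high at 7.88 and Cxcl12 at 8.75.

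For 12 named genes the RA effect at 12 h differed between the backgrounds by the test of the difference (null minus wild type, limma, adjusted over all genes). These 12 are the genes that the naming rule took for their called difference, so their number repeats that choice. It was more positive in the null for Arg2 (3.22), Hgd (2.75), Tgfbi (2.6), Il1r2 (1.97), Ngp (1.82) and Stra8 (1.75). It was more negative for Nr4a1 (-1.85), Wee2 (-1.66), Adamtsl3 (-1.39), Irak3 (-0.78), Dnase2a (-0.71) and Ces5a (-0.60). With RA at 12 h in the null, the Ces5a probe set used changed by -0.61 and its other probe set by -0.27.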

How the results depend on the processing

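No effect of a single gene changed sign under the alternatives run for it, but the balance of calls did turn. The difference between backgrounds had 36 calls up and 10 down, and 1 up and 3 down with the 6 h controls alone. Batch 4 had 537 up and 469 down, and 1136 and 1369 with array weights, 777 and 793 without RA 6 h replicate 1 and 616 and 639 without RA 6 h replicate 4. The wild type effect had 1025 up and 1165 down, and 1262 and 890 with centred arrays, 515 and 346 with the 6 h controls and 452 and 448 with the 12 h controls, 862 and 831 without untreated 12 h replicate 1 and 987 and 938 without RA replicate 2. The count for RA at 12 h in the null was 917 with the 12 h controls alone, 522 with the 6 h controls alone and 2670 with all 36 viral arrays and a batch term, and 1010 to 1844 when single arrays were left out. The difference between backgrounds gave 7 genes with the 12 h controls, 4 with the 6 h controls, 113 with only the arrays compared, 174 with the batch term, 187 with array weights, and 21 to 71 without single arrays. For 12 h against 6 h of RA the count was 52 with 8 groups, 14 with only the arrays compared, 416 with the batch term, 158 with centred arrays, 1722 with array weights, and 20 to 744 without single arrays. Between the untreated labels it was 0 to 30 without single arrays. Batch 4 gave 2505 with array weights and 289 to 1570 without single arrays. The wild type effect gave 900 with the 12 h controls, 861 with the 6 h controls and 1591 to 2277 without single arrays. Settings with controls of 1 label use fewer arrays; the cause of the other shifts was not tested. Among values for single genes and call counts of lists, 2968 stayed. A gene stayed if it kept its side of the threshold. A list stayed if its count was within 1.5-fold of the main one, which includes lists with 0 calls in both. For genes 170 values lost and 10 gained a call, and 139 list counts moved further. The titles give all arrays the same replicate number and each array a code of its own. No label says which arrays belong together, so no paired analysis was run.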

Other observations

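The wild type RA arrays also fell into pairs for some neutrophil genes. Padi4 read 9.46, 9.39, 6.57 and 6.61 on wild type RA replicates 1 to 4 and 6.54 to 7.07 untreated, and Ankrd22 read 10.18, 9.67, 6.94 and 7.76 and 7.67 to 8.32. In the null at 6 h, RA replicate 4 read highest for Padi4 (6.94, 6.80, 6.23 and 8.99), Isg20 (8.69, 8.35, 8.52 and 10.01) and Hgd (6.42, 6.98, 6.28 and 8.55). The median over genes of the standard deviation within a group was 0.0975 for the untreated null arrays, 0.12 with RA at 12 h and 0.14 with RA at 6 h, and 0.0893 and 0.125 for the untreated and RA arrays of the wild type.

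Some markers of other cells differed between the backgrounds without RA, given as values only. The surrogate light chain gene Igll1 read 7.79 to 8.54 in the null and 10.87 to 11.55 in the wild type, Thy1 10.01 to 10.72 and 12.60 to 12.74, and the mast cell protease Cpa3 12.26 to 12.76 and 8.38 to 10.16. The untreated means of their marker lists overlapped, so these single genes do not stand for a cell type. For B cells the means were 7.07 to 9.0 in the null and 7.12 to 7.39 in the wild type. They were 6.41 to 6.94 and 6.93 to 7.16 for T and NK cells. For eosinophils, basophils and mast cells they were 7.23 to 7.98 and 7.1 to 7.45. The mean of the 21 interferon response genes was 7.16 to 7.34 in the untreated null and 8.65 to 9.03 in the untreated wild type, and that of the 24 neutrophil genes 9.20 to 9.52 and 11.03 to 11.35.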
